A study of Mus musculus with 12 samples.

Results

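Chemoattractant receptors carry macrophages and other leukocytes toward a source of chemokine, formyl peptide, or complement, and 9 of them are described here across bone marrow–derived macrophages (BMDMs) with and without LPS and the milk sugar 3′-sialyllactose (3′SL). The 9 genes were taken by name from the 43626 gene identifiers in the count data. No measured value entered the rule, but the genes were chosen with earlier results of these data known. They are Ccr1, Ccr2, and Cx3cr1, receptors for CC and CX3C chemokines; Cxcr4 and Ackr3, which bind CXCL12; Fpr1 and Fpr2, the formyl peptide receptors; and Cmklr1 and Ccrl2, which bind chemerin. RNA-Seq had been done on 12 BMDM libraries in 4 conditions of 3 libraries each. Per the study's methods, cells were kept for 6 hours with PBS as the control, with 3′SL at 100 μg/mL, with LPS at 10 ng/mL, or with both agents at these doses (LPS + 3′SL). LPS, from the envelope of gram-negative bacteria, is the classical agonist of TLR4, whereas 3′SL is lactose joined to a sialic acid. The labels call the sugar groups HMO and LPS+HMO and state as treatment repeated injections of mice, so that doses and hours here rest on the study's text. The strain, age, and number of mice that gave the marrow are not given in the sources used here, and the labels do not say which libraries came from separate cultures. The study describes replicates of its BMDM RNA-Seq as biological and independent, without saying how the libraries used here were prepared, and p-values measure the spread between these libraries.

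Most chemoattractant receptors are G protein–coupled receptors that signal through Gi proteins, G protein βγ subunits, phosphoinositide 3-kinase, and Rac to orient the cytoskeleton, and they are switched off by receptor kinases and arrestins. Ccrl2 and Ackr3 are atypical members that bind ligand without the usual G protein signal and hold, present, or scavenge it. In the mononuclear phagocyte lineage, Ccr2 marks monocytes that leave the bone marrow, Cx3cr1 marks patrolling monocytes and many resident macrophages, and Cxcr4 holds cells in the marrow. Fpr1 and Fpr2 detect peptides released by bacteria and by damaged mitochondria.

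In each library, 20411741 to 26851890 reads were counted on genes, and 14308 genes passed the filter on low counts. Levels are given as CPM, counts per 1000000 reads on library sizes scaled by TMM factors, which ran from 0.7 to 1.3. Once condition means had been subtracted, residuals clustered into 3 library sets. A set held 4 libraries, 1 per condition, with consecutive running numbers in the labels. The mean correlation of the residuals was 0.596 within sets and -0.346 between sets. No label names these sets, and values below are therefore given by set as well as by condition, always in the order of sets 1, 2, and 3. The summed level of the 8 macrophage markers ran from 17600 to 30000 CPM, and all of them passed the filter. Neutrophil markers (7 of 7 tested, none at 0 in all libraries) summed to 135 to 533 CPM with PBS, 148 to 296 with 3′SL, 213 to 983 after LPS, and 212 to 909 in LPS + 3′SL, with 135 to 213 in set 1, 257 to 433 in set 2, and 296 to 983 in set 3. Monocyte markers (5 of 5 tested, none at 0 in all libraries) summed to 45.7 to 129, 45.6 to 101, 95.8 to 321, and 85.7 to 276 CPM in these conditions. Stromal markers summed to 529 to 616 CPM in set 1 and to at most 96.7 in the other sets, T and NK cell markers to at most 0.161 (2 of 4 at 0 in all libraries), and B cell markers to at most 0.911. Dendritic cell markers summed to 47.9 to 156 CPM, endothelial markers to 5.17 to 25.8, and mast cell and basophil markers to at most 3.06.

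Of the 9 receptors, 8 passed the filter and were tested. The genes lie on 4 chromosomes of GRCm38 (GENCODE M21 annotation), Ccrl2 (chr9:111054486-111057519), Cx3cr1 (chr9:119901616-120069879), Ccr1 (chr9:123962124-123968692), and Ccr2 (chr9:124101950-124113557) on chromosome 9, Fpr1 (chr17:17876471-17883940) and Fpr2 (chr17:17887824-17893952) beside each other on chromosome 17, Ackr3 (chr1:90203980-90216751) and Cxcr4 (chr1:128588199-128592293) on chromosome 1, and Cmklr1 (chr5:113612354-113650426) on chromosome 5. Counts of Fpr2 are uncertain, because 31.51% of the 50-nucleotide words of its transcripts also occur in other genes, mainly the pseudogene Gm5966 and Fpr3, and an exon overlaps Fpr3 on the same strand. For Ccr2 the shared portion was 1.91%, and it was at most 0.27% for the other receptors. Exons of Cx3cr1 overlap the antisense gene Gm33858, and whether the counting used the strand is not given in the sources used here.

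The promoters of the 4 genes with the largest changes are shown, since their level moved most between conditions. RefSeq (GRCm38.p6) places them at chr9:111057469-111057768 on the minus strand for Ccrl2, chr17:17883890-17884189 on the minus strand for Fpr1, chr17:17887574-17887873 on the plus strand for Fpr2, and chr1:128592250-128592549 on the minus strand for Cxcr4. Each is read 5′ to 3′ on the strand of its gene, from 250 bases before the start through 50 bases after it. For Ccrl2, which has several entries, the start nearest to that of GENCODE was taken. Capitals mark matches to the motifs given below, which are the NF-κB site in Ccrl2 and TATAAA in the other genes.

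Ccrl2 promoter: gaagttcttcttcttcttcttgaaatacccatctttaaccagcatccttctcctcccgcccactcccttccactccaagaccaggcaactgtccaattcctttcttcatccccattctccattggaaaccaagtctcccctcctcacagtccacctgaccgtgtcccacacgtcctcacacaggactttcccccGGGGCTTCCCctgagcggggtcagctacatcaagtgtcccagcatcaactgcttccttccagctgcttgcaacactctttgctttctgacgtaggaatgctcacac
Fpr1 promoter: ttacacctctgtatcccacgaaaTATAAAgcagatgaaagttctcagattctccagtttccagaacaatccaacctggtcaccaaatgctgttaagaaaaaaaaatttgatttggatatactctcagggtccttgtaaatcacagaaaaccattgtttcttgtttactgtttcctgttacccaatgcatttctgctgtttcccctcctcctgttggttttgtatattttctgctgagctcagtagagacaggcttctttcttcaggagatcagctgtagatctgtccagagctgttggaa
Fpr2 promoter: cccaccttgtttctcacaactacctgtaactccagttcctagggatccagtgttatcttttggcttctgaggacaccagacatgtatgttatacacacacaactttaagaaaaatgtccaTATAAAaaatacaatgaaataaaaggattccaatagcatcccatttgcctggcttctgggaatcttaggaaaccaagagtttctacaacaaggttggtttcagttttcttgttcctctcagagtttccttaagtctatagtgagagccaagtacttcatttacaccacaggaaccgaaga
Cxcr4 promoter: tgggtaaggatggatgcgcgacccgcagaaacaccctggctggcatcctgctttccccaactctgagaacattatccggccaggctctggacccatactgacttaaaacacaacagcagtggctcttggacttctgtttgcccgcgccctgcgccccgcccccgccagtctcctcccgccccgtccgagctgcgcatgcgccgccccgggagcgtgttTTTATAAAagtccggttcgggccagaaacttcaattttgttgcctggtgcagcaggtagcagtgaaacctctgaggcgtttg

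The motifs searched on both strands were the NF-κB site of 10 letters, AP-1 (TGANTCA), CRE (TGACGTCA), the ISRE core (GAAANNGAA), PU.1 (GAGGAAGT), C/EBP (TTNNGNAAT), and TATAAA. The NF-κB site occurred in the windows of Ccrl2, at -56 to -47 from the start, and of Ccr1, at -74 to -65, which is 2 of the 9 receptors beside 8.46% of all 32851 RefSeq windows. Cxcr4 held TATAAA at -30 to -25, with an overlapping match on the other strand at -32 to -27, and Fpr1 held it at -227 to -222, Fpr2 at -130 to -125, and Ackr3 at -8 to -3, which is 4 of the 9 receptors beside 13.6% of all windows. In the window of Ccr2, the ISRE core lay at -86 to -78 (8.56% of all windows) and C/EBP at -244 to -236 (11.5%). None of the 9 windows held AP-1 (7.81% of all windows), CRE (1.79%), or PU.1 (3.2%). These are matches of letters only. The RefSeq starts used for Cmklr1, Cx3cr1, and Ccr2 lie 6823, 1583, and 233 bases from the GENCODE start of the gene. In Ccr2, the ISRE core lies after the GENCODE start and the C/EBP match before it.

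At rest, Ccr1 and Cxcr4 were the most abundant receptors per length of mRNA. With PBS, the mean level per kilobase of exon was 54.9 CPM for Ccr1 (libraries 41.9 to 78.1), 22.8 for Cxcr4 (11.6 to 33.3), and 7.50 for Cmklr1 (5.85 to 10.3), and the libraries of these neighbours in the order did not overlap. Below them came Fpr1 at 3.64 CPM per kilobase (2.82 to 4.71), Cx3cr1 at 2.85 (1.21 to 4.56), Ccrl2 at 2.31 (1.73 to 2.60), and Fpr2 and Ccr2, both at 2.10 (0.953 to 2.76 and 1.83 to 2.27), and each of these overlapped the next. With 3′SL, the order of means per kilobase was Ccr1 (41.5 CPM), Cxcr4 (22.2), Cmklr1 (9.51), Fpr1 (4.13), Fpr2 (3.52), Ccrl2 (2.33), Cx3cr1 (1.89), and Ccr2 (1.46), with gaps between the libraries of neighbours after Ccr1 and after Cmklr1 and overlaps elsewhere.

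LPS put other receptors at the top. With LPS, the mean per kilobase was 197 CPM for Fpr2 (141 to 272), 141 for Ccrl2 (126 to 162), 132 for Fpr1 (110 to 163), and 124 for Ccr1 (77.9 to 206), whose libraries overlapped, followed without overlap by Cmklr1 at 39.3 (36.1 to 44.5). The remaining receptors stood far lower, at 2.24 for Ccr2 (2.09 to 2.35), 1.72 for Cxcr4 (1.42 to 2.24), and 1.48 for Cx3cr1 (1.08 to 1.82), and neighbours among them overlapped. With LPS + 3′SL, Fpr2 (133 CPM per kilobase, 81.4 to 200) and Ccr1 (128, 87.7 to 206) were followed by Fpr1 (78.3, 59.7 to 101) and Ccrl2 (68.5, 55.2 to 78.4), each overlapping its neighbour, then without overlap by Cmklr1 (31.4, 25.7 to 39.1). Ccr2 (2.05), Cxcr4 (2.02), and Cx3cr1 (1.62) again overlapped at the bottom. In the order of means, Ccrl2 stood above Fpr1 and Ccr1 with LPS and below both with LPS + 3′SL.

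**Figure D1:**
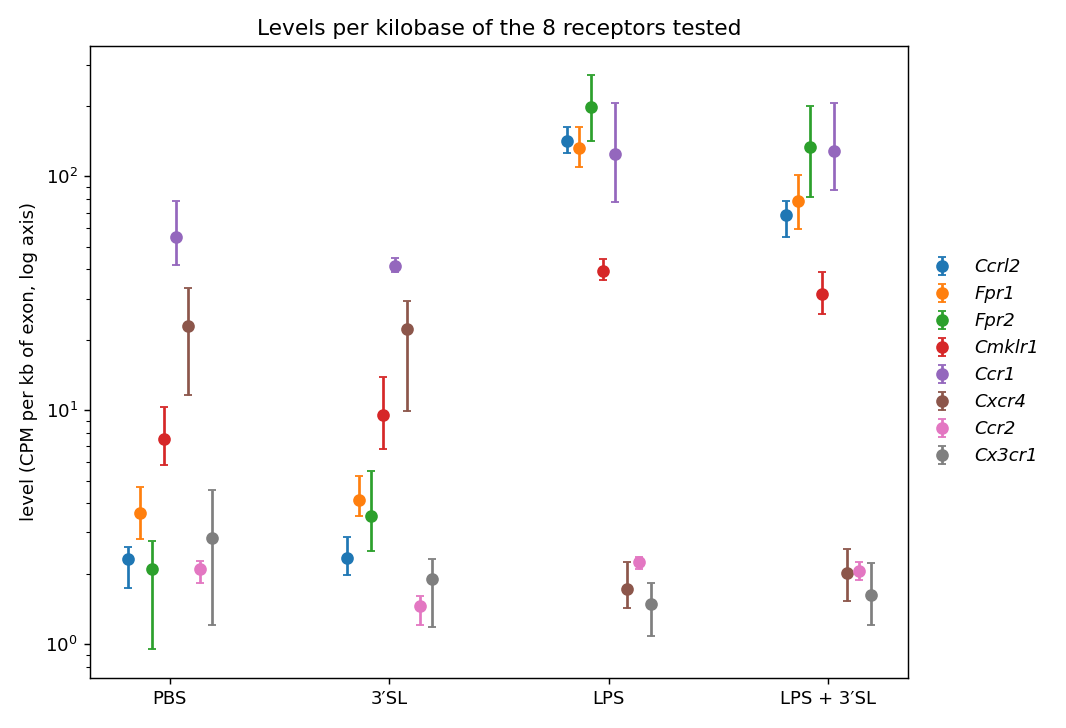
Mean level of each tested receptor (CPM per kilobase of exon, log axis) in the 4 conditions, with bars from the lowest to the highest of 3 libraries. Fpr2, Ccrl2, and Fpr1 moved from 2.10, 2.31, and 3.64 with PBS to 197, 141, and 132 with LPS, and Cxcr4 from 22.8 to 1.72.

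Ackr3, the scavenging receptor for CXCL12 and CXCL11, was at or near the limit of detection. It had 14 reads in all 12 libraries, 8 of them with PBS, 2 with 3′SL, 3 after LPS, and 1 in LPS + 3′SL. In 6 libraries it had 0. The highest library held 6 reads. A count of 0 allows a level of up to 3 counts, which is 0.0861 to 0.184 CPM in these libraries and covers counting error only, so no difference was detectable at this depth.

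LPS raised 5 of the 8 tested receptors and lowered 1. A call required a change of 1.5-fold or more and an adjusted p (edgeR's quasi-likelihood test) below 0.05. In the comparison of LPS with PBS 18.3% of all genes tested were called higher and 20.2% lower. The receptors that rose were Ccrl2, Fpr2, Fpr1, Cmklr1, and Ccr1, and Cxcr4 fell. The median log2 difference was 1.78 over the 8 receptors and -0.06 over all genes tested. In a culture measured in bulk, more cells that carry a transcript and more transcript per cell cannot be told apart.

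**Figure D2:**
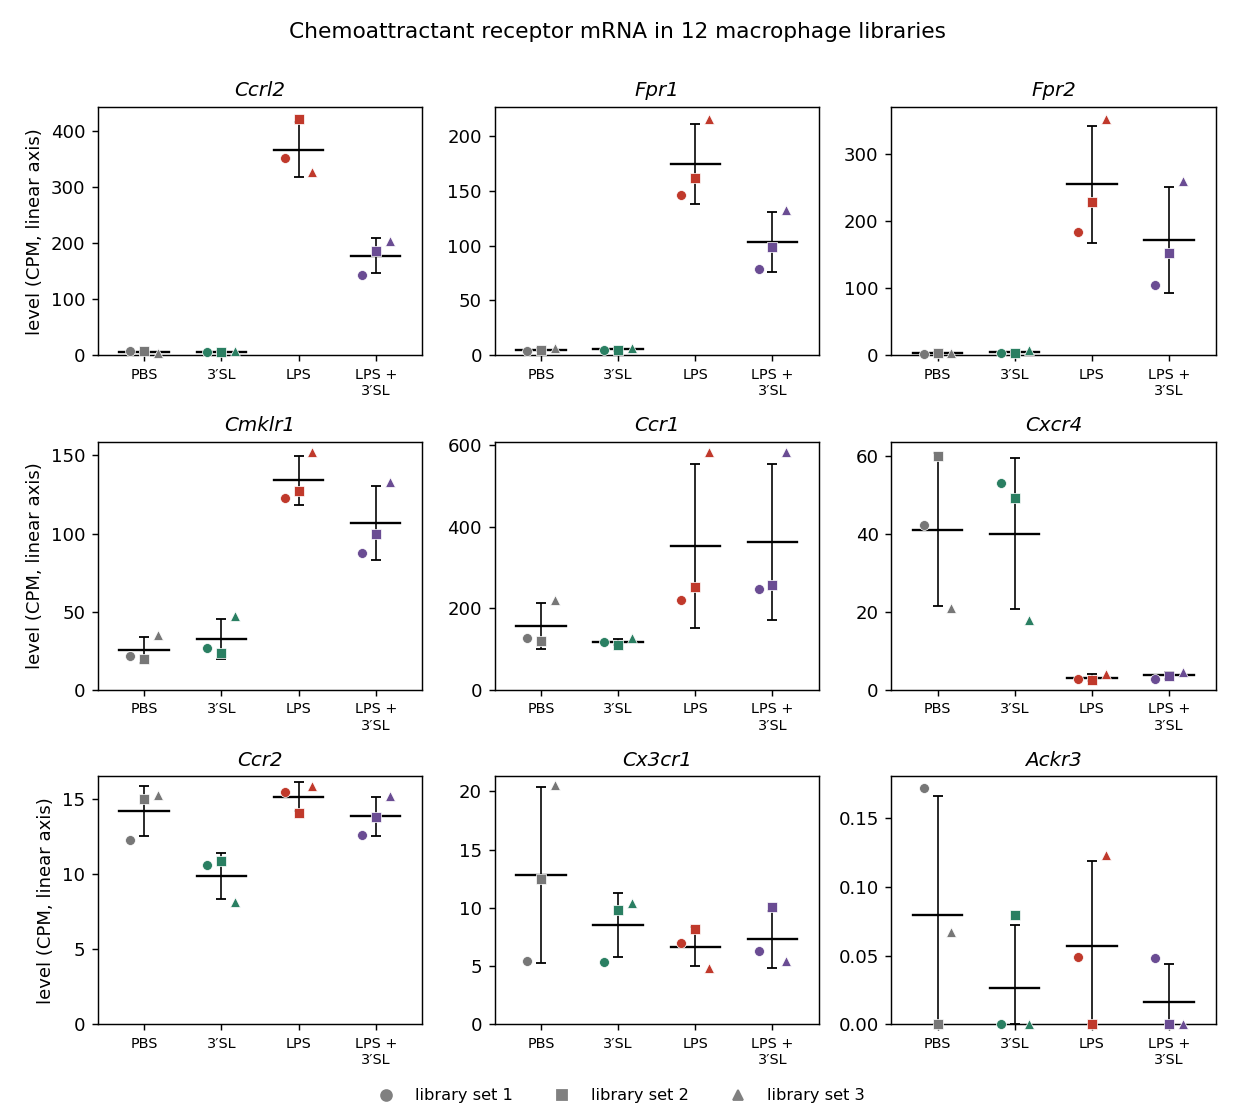
Level of each of the 9 receptors (CPM, linear axes from 0) in every library, with the mean as a line and the SD over 3 libraries as a bar (cut at 0 for Ackr3) and with symbols for the library sets. Ccrl2 with LPS + 3′SL (143 to 204 CPM) lay below LPS (327 to 422), and Ackr3 stayed within 0 to 6 reads per library.

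Among the chemerin binders, Ccrl2, which concentrates chemerin at the cell surface for other cells, had levels of 6.75, 6.74, and 4.49 CPM with PBS and 352, 422, and 327 CPM with LPS. Every LPS library was far above every PBS library, a 61.2-fold difference (log2 5.94 ± 0.24 SE, n = 3 per condition, edgeR adjusted p = 1.68e-07). Cmklr1, the signalling receptor for chemerin, went from 21.8, 19.9, and 34.9 CPM to 123, 127, and 152 CPM, which was 5.24-fold higher without overlap (log2 2.39 ± 0.30, edgeR adjusted p = 8.31e-05).

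For the formyl peptide receptors the resting level was low and the rise large. Fpr1, the high-affinity receptor for bacterial formyl peptides, had 3.73, 4.49, and 6.24 CPM with PBS and 146, 162, and 216 CPM with LPS (log2 5.18 ± 0.29, 36.3-fold, edgeR adjusted p = 6.61e-07). Its difference within the sets was nearly the same, at log2 5.29, 5.18, and 5.11. Fpr2, which also binds serum amyloid A, annexin A1, and cathelicidin peptides, had 1.23, 3.37, and 3.58 CPM with PBS and 183, 229, and 352 CPM with LPS (log2 6.56 ± 0.57, 94-fold, edgeR adjusted p = 7.17e-06). Both rose in all 3 sets and without overlap of libraries. Neutrophils, whose markers are given above, are known to carry both receptors, and the part of such cells in the levels was not tested. The difference of Fpr2 within the sets was log2 7.21, 6.09, and 6.62, and the PBS library of set 1 held only 43 reads of it.

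Of the CC chemokine receptors, Ccr1, the receptor for CCL3 and CCL5, was already the highest at rest and rose 2.26-fold (log2 1.18 ± 0.43, edgeR adjusted p = 0.0431). Its levels were 127, 119, and 221 CPM with PBS and 221, 251, and 584 CPM with LPS, so that the libraries overlapped between conditions while the change was positive in every set (log2 0.80, 1.08, and 1.40). The call was lost without the LPS library of set 3 (log2 0.60, edgeR adjusted p = 0.241), which was the highest of the LPS libraries and came from the set with the most neutrophil marker reads, whose part in Ccr1 was not tested. It was also lost without PBS replicate 1 or 2 or any 1 of the 3′SL libraries (edgeR adjusted p = 0.0532 to 0.137). Ccr2, the receptor for CCL2, had 12.3, 15.0, and 15.3 CPM with PBS and 15.5, 14.1, and 15.9 CPM with LPS, an overlapping range with a difference of log2 0.09 (95% interval -0.24 to 0.42, edgeR adjusted p = 0.652).

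Cx3cr1, the receptor for fractalkine, had 5.46, 12.5, and 20.5 CPM with PBS and 6.98, 8.18, and 4.85 CPM with LPS. The PBS libraries spread widely, 1 LPS library lay below all of them and the other two within their range, and the difference was log2 0.36 in set 1, -0.61 in set 2, and -2.08 in set 3 (fitted -0.94 ± 0.45, 95% interval -1.92 to 0.05, edgeR adjusted p = 0.109). Without PBS replicate 1 it was -1.30 and past the threshold (edgeR adjusted p = 0.0194). Cxcr4, the signalling receptor for CXCL12, fell 13.3-fold, from 42.4, 60.2, and 21 CPM with PBS to 2.69, 2.57, and 4.05 CPM with LPS (log2 -3.74 ± 0.49, edgeR adjusted p = 1.18e-04). All LPS libraries lay below all PBS libraries, with the smallest difference in set 3 (log2 -3.98, -4.55, and -2.38).

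In the presence of 3′SL, LPS moved the same receptors in the same directions. Compared with 3′SL alone, LPS + 3′SL had Ccrl2, Fpr2, Fpr1, Cmklr1, and Ccr1 called higher and Cxcr4 called lower, beside 14.3% of all genes called higher and 14.8% lower. The differences were log2 4.87 ± 0.23 for Ccrl2, 5.24 ± 0.54 for Fpr2, 4.24 ± 0.28 for Fpr1, 1.72 ± 0.29 for Cmklr1, 1.63 ± 0.43 for Ccr1, and -3.46 ± 0.48 for Cxcr4. Ccr1 lost its call without the LPS + 3′SL library of set 3 (log2 1.11, edgeR adjusted p = 0.0611). Ccr2 differed by log2 0.49 ± 0.15, past the p threshold but under 1.5-fold (edgeR adjusted p = 0.0266), and by -0.01 when libraries were scaled by total counts. Cx3cr1 differed by -0.22 with a 95% interval of -1.20 to 0.76. With the library sets as a block in the fit, the same 6 receptors were called in both LPS comparisons, beside 20.5% of all genes higher and 24% lower for LPS against PBS and 16.4% higher and 19.4% lower for LPS + 3′SL against 3′SL.

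**Figure D3:**
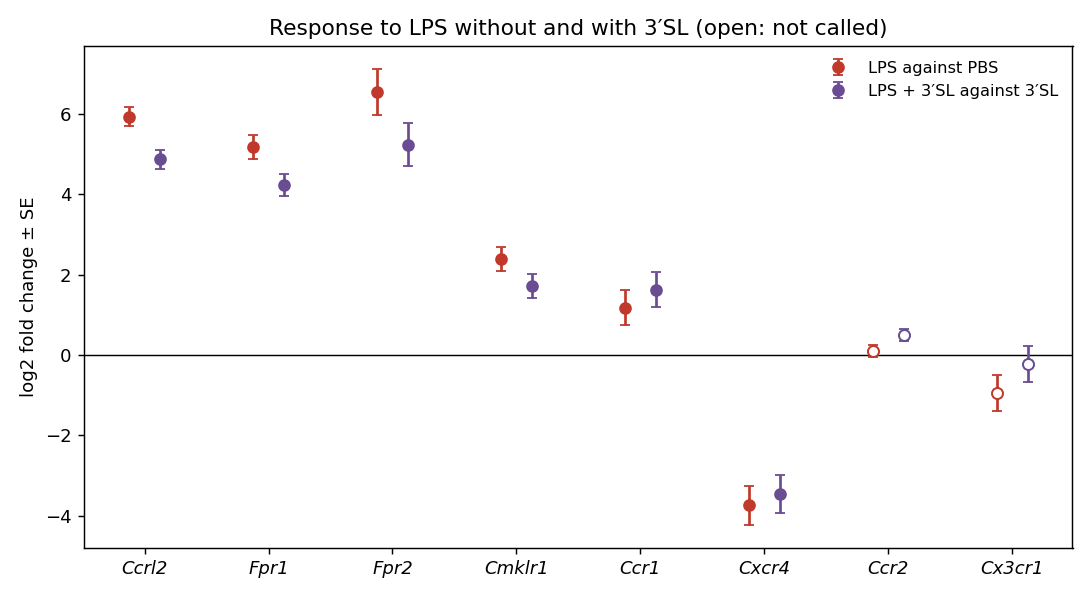
Log2 fold change of each tested receptor with its SE from edgeR, for LPS against PBS and for LPS + 3′SL against 3′SL, with open symbols for differences that were not called. Ccrl2, Fpr1, Fpr2, and Cmklr1 had the lower value beside 3′SL, 4.87 against 5.94 for Ccrl2 and 4.24 against 5.18 for Fpr1.

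The study asked, among other questions, what 3′SL does to macrophages given LPS together with it. The comparison of LPS + 3′SL with LPS shares its LPS libraries with that of LPS and PBS. No receptor was called by edgeR in LPS + 3′SL against LPS, as for 0% of all genes, although 995 genes, Ccrl2 and Fpr1 among them, had an unadjusted p under 0.05. Ccrl2 and Fpr1 were the receptors whose libraries did not overlap, both lower with 3′SL, beside 6.5% of all genes with such a lower pattern.

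Ccrl2 had 352, 422, and 327 CPM with LPS and 143, 187, and 204 CPM with LPS + 3′SL. The highest library with the sugar stood well under the lowest without it, and the level beside 3′SL was 40.7%, 44.2%, and 62.2% of that with LPS alone in the 3 sets. The fitted difference was log2 -1.05 ± 0.20, 2.06-fold (95% interval -1.48 to -0.61, edgeR adjusted p = 0.153). DESeq2 called it (adjusted p = 4.37e-04, beside 0.461% of all genes called lower), and so did edgeR with the library sets as a block (adjusted p = 0.00964, beside 0.762% of all genes called lower). The block removes from the spread what the 4 libraries of a set share, and it lowered the biological coefficient of variation over all genes from 0.31 to 0.133. Over all alternatives, the difference of Ccrl2 ran from log2 -1.22 to -0.91 and its adjusted p from 3.26e-06 to 1, and the block without set 1 or without set 2 did not call it.

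Fpr1 had 146, 162, and 216 CPM with LPS and 79.0, 98.9, and 133 CPM with LPS + 3′SL. The groups did not overlap, and the level beside the sugar was 54%, 60.9%, and 61.7% of that without it (log2 -0.75 ± 0.24, 95% interval -1.29 to -0.22, edgeR adjusted p = 0.439). With the block the difference was log2 -0.77 ± 0.07 and was called (edgeR adjusted p = 8.33e-04), whereas DESeq2 without a block did not call it (adjusted p = 0.221). Its alternatives ran from log2 -0.97 to -0.57 and from an adjusted p of 4.8e-05 to 1, and the block without set 1 or without set 2 did not call it either. The spread of Fpr1 over libraries of a condition was 0.34 as an SD of log2 CPM, and 0.07 after the set means had been removed.

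Fpr2 had 183, 229, and 352 CPM with LPS and 105, 152, and 259 CPM with LPS + 3′SL. These ranges overlapped, while within each set the library with 3′SL was the lower, at 57.6%, 66.2%, and 73.4% of the level with LPS alone (log2 -0.57 ± 0.44, edgeR adjusted p = 0.99, with the block -0.61 and 0.0686). Cmklr1 was at 71.2%, 78.6%, and 87.8% (87.6, 99.6, and 133 CPM against 123, 127, and 152), also with overlapping ranges (log2 -0.33 ± 0.28, edgeR adjusted p with the block 0.197). Over the same libraries, neutrophil markers summed to 213 to 983 CPM without the sugar and 212 to 909 beside it, and monocyte markers to 95.8 to 321 and 85.7 to 276.

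For the remaining receptors no difference past the thresholds was found. Ccr1 had 221, 251, and 584 CPM with LPS and 248, 256, and 583 CPM with LPS + 3′SL, nearly the same in every set (log2 0.17, 0.03, and 0.00, fitted 0.04 with a 95% interval of -0.89 to 0.98). Ccr2 (log2 -0.13, interval -0.46 to 0.20), Cx3cr1 (0.12, -0.86 to 1.11), and Cxcr4 (0.24, -0.80 to 1.29) also had overlapping libraries, and these intervals leave room for differences of the size seen in Fpr1 in all but Ccr2.

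**Figure D4:**
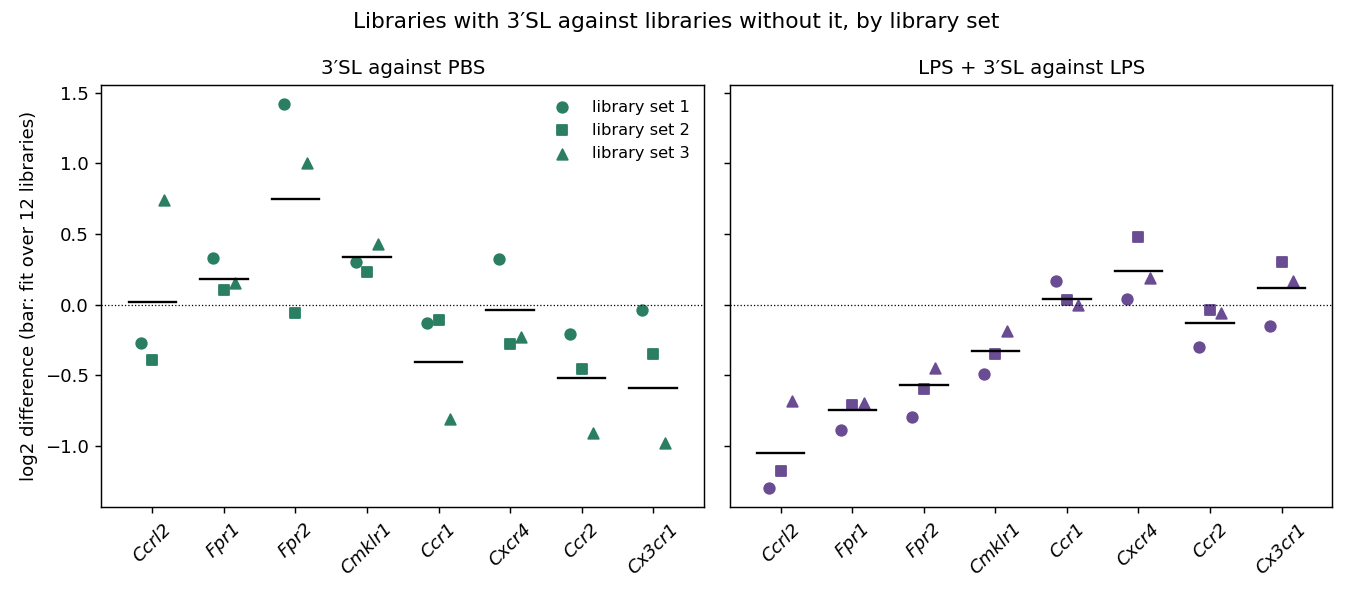
Log2 difference between libraries with and without 3′SL within each library set (symbols) and from the fit over 12 libraries (bars), at rest on the left and with LPS on the right. Ccrl2, Fpr1, Fpr2, Cmklr1, and Ccr2 were below 0 in all 3 sets with LPS, from -1.30 to -0.04, and Ccr1, Ccr2, and Cx3cr1 in all 3 sets at rest, from -0.98 to -0.04.

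Without LPS, 3′SL changed no receptor past the thresholds (0% of all genes were called, with 1439 genes, Ccr2 among them, at an unadjusted p under 0.05). Ccr2 had 12.3, 15.0, and 15.3 CPM with PBS and 10.6, 10.9, and 8.15 CPM with 3′SL. Every 3′SL library was below every PBS library, as for 8.53% of all genes, and the difference was log2 -0.52 ± 0.15 (95% interval -0.85 to -0.19, edgeR adjusted p = 0.331, with the block 0.0603). Fpr2 differed by log2 0.75 ± 0.49 at a level of 1.23 to 7.16 CPM and was -0.06 in set 2. Ccrl2 (log2 0.02, interval -0.44 to 0.48), Cxcr4 (-0.04, -0.98 to 0.91), Fpr1 (0.18, -0.39 to 0.76), and Cmklr1 (0.34, -0.29 to 0.98) had overlapping libraries, as had Ccr1 (-0.41, -1.34 to 0.53) and Cx3cr1 (-0.59, -1.56 to 0.38). With the block, 2.84% of all genes and none of the receptors were called, and by DESeq2 0.615% and none.

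Whether the difference with 3′SL depended on LPS was tested by the interaction, the difference with LPS minus the difference at rest. No receptor was called by edgeR, as for 0% of all genes (872 genes, Ccrl2 and Fpr1 among them, had an unadjusted p under 0.05). The interaction was log2 -1.06 ± 0.29 for Ccrl2 (95% interval -1.69 to -0.43, edgeR adjusted p = 0.588), -0.94 ± 0.36 for Fpr1 (-1.73 to -0.15, adjusted p = 0.746), -1.32 ± 0.66 for Fpr2 (-2.78 to 0.14, adjusted p = 0.827), and -0.67 ± 0.40 for Cmklr1 (-1.56 to 0.22, adjusted p = 0.854). With the block, Fpr1 (-0.96, edgeR adjusted p = 0.00746) and Fpr2 (-1.37, adjusted p = 0.0283) were called lower, beside 1.29% of all genes called lower, and Ccrl2 (adjusted p = 0.0729) and Cmklr1 (adjusted p = 0.0839) were not. The block without set 1 or without set 2 called 0 receptors, and without set 3 it called 4. DESeq2 called none of the receptors, beside 0.308% of all genes. Over all alternatives, the adjusted p of the interaction ran from 0.00191 to 1 for Fpr1 and from 0.0265 to 1 for Fpr2. At rest, at levels of a few CPM, Fpr2 differed by log2 1.42, -0.06, and 1.0 in the sets, and with LPS by -0.80, -0.60, and -0.45.

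Of the genes whose products the receptors bind, 17 of 18 were tested, and Rarres2, the gene for chemerin, was not, with at most 8 reads in a library. LPS raised 13 of them and lowered 0, beside 18.3% of all genes called higher and 20.2% lower. The largest differences were log2 9.5 ± 0.93 for Cxcl11, a ligand of Ackr3, 8.48 ± 0.56 for Saa3, a serum amyloid A gene, and 8.39 ± 0.81 for Ccl5, a ligand of Ccr1. Beside 3′SL, 12 rose and 0 fell with LPS (14.3% and 14.8% of all genes), again led by Cxcl11 (8.12 ± 0.86), Ccl5 (7.05 ± 0.77), and Saa3 (6.00 ± 0.51). Cxcl11 had only 0, 4, and 4 reads with PBS and 2, 4, and 10 with 3′SL, so the size of its rise and its first place are uncertain. In LPS + 3′SL against LPS, 0 of the 17 were called by edgeR. Of their differences, 16 were negative, beside 7332 of all 14308 genes tested. The median was log2 -0.37, beside -0.01 over all genes tested. The list was chosen with earlier results of these data known, and the study names Saa3 among the genes that 3′SL repressed.

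With the sets as a block, 3 ligand genes were called lower in this comparison, beside 0.762% of all genes. Saa3 had 1900, 1960, and 3310 CPM with LPS and 519, 691, and 912 CPM with LPS + 3′SL, with no overlap (block log2 -1.73, edgeR adjusted p = 0.00949). Ccl3, a ligand of Ccr1, had 1480, 1930, and 1920 CPM with LPS and 597, 770, and 1120 CPM with both, also with no overlap (block log2 -1.14, edgeR adjusted p = 0.00502). Ccl5 had 1110, 1390, and 2410 CPM with LPS and 564, 741, and 1420 CPM with both, with overlapping ranges and a lower value in every set (block log2 -0.89, edgeR adjusted p = 0.0485). DESeq2 called Saa3 (adjusted p = 0.00537) and Ccl3 (0.00734) lower, beside 0.461% of all genes, and Ccl5 not (0.943). The interaction was called with the block for Saa3 (log2 -2.47, edgeR adjusted p = 0.0177), beside 1.29% of all genes called lower.

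**Figure D5:**
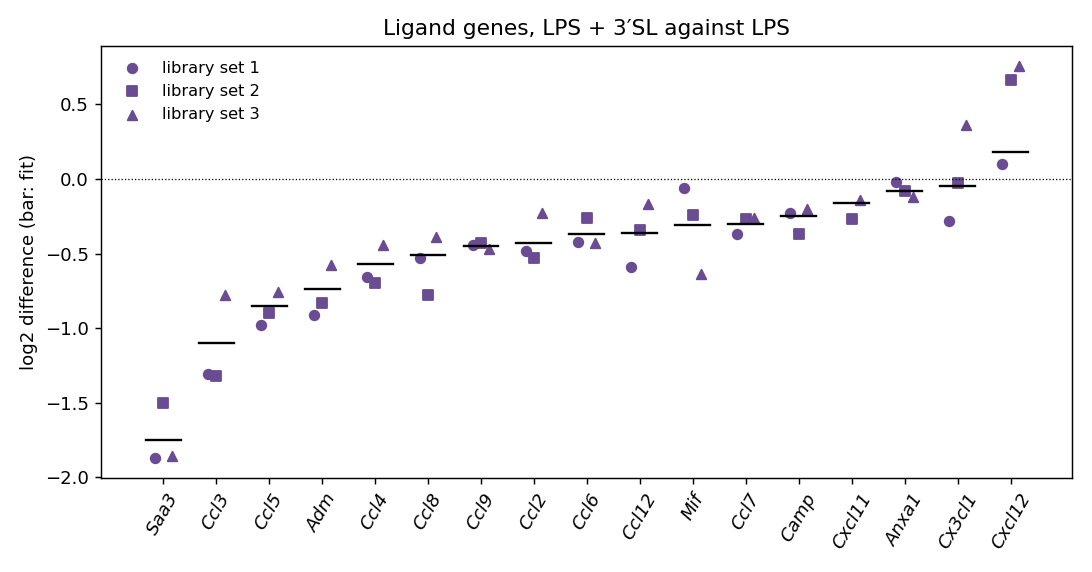
Log2 difference of the 17 tested ligand genes between LPS + 3′SL and LPS, within each library set (symbols) and from the fit (bars). All bars but that of Cxcl12 lie below 0, from -1.75 for Saa3 to -0.05 for Cx3cl1. For Cxcl11 no value is drawn in set 1, because the calculation took logarithms of all 4 libraries of a set and the PBS library had 0 reads. The 2 libraries compared there had 38.4 CPM with LPS and 35.4 CPM with LPS + 3′SL.

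Of 31 other chemoattractant receptors, 14 were tested. LPS raised 4 and lowered 4 of them, beside 18.3% and 20.2% of all genes, with the largest differences in Ccr9 (log2 3.93 ± 0.55), Gpr183 (-3.84 ± 0.26), an oxysterol receptor, and Xcr1 (3.78 ± 0.69). With the block, 7 were called higher and 3 lower, beside 20.5% and 24% of all genes. Ccr9 and Xcr1 stayed low, at 1.5 to 3.07 CPM and 4.50 to 12.6 CPM with LPS. Beside 3′SL, LPS raised 6 and lowered 2 (14.3% and 14.8% of all genes), led by Ccr9 (3.44 ± 0.56), Xcr1 (3.16 ± 0.66), and Gpr183 (-2.64 ± 0.24). No gene of this list was called by edgeR in a comparison of 3′SL. With the block, Ptafr, the receptor for platelet-activating factor, was called lower in LPS + 3′SL (258, 315, and 309 CPM) than in LPS (479, 558, and 447 CPM), with no overlap of libraries (log2 -0.75, edgeR adjusted p = 0.0167, beside 0.762% of all genes called lower). DESeq2 called Ptafr lower (adjusted p = 0.0129) and Gpr183 higher with both (2.10, 1.60, and 1.41 CPM against 3.59, 4.87, and 2.95, log2 1.15, adjusted p = 0.014), beside 0.461% of all genes called lower and 0.328% higher.

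All 30 genes of receptor signalling and desensitization were tested. LPS raised 11 and lowered 8, beside 18.3% and 20.2% of all genes, with differences among the largest in Pik3r5, a regulatory subunit of PI3Kγ (log2 2.24 ± 0.18), and Arrb1, β-arrestin 1 (-2.15 ± 0.17). Beside 3′SL, 8 rose and 7 fell (14.3% and 14.8% of all genes), and the differences were -2.08 ± 0.17 for Arrb1 and 1.84 ± 0.17 for Pik3r5. In the comparisons of 3′SL none was called by edgeR, and with the block 2 were called at rest, beside 2.84% of all genes. These were Grk5, a receptor kinase, with 10.6, 9.68, and 14.8 CPM with PBS and 21.3, 19.7, and 48.5 CPM with 3′SL (block log2 1.29, edgeR adjusted p = 0.00966), and Rgs1, which speeds the shut-off of Gi proteins, with 77.8, 82.5, and 95.2 CPM with PBS and 43.4, 51.4, and 37.2 CPM with 3′SL (block log2 -1.0, edgeR adjusted p = 0.0189). Neither overlapped between conditions, as for 9.02% of all genes that were higher with 3′SL and 8.53% that were lower.

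Genes with a pattern like that of each receptor were sought by Pearson's r of log2 CPM over the 12 libraries, as a description. The points share 4 conditions and 3 sets, and LPS separates them for every gene that it moved. Ccrl2 was most like Rab12 (r = 0.997), Clic5, and Plek (both 0.996), Fpr1 like Peli1 (0.999), Tent5a, and Zfp800 (both 0.998), and Fpr2 like Cd47, Cxcl9, and Adgrg6 (all 0.997). Cmklr1 was most like Tent4a, Junb (both 0.997), and Nfkbia (0.996), Ccr1 like Rcan1 (0.984) and Armc5 (0.981), and Cxcr4 like E2f2 (0.994), Rnf150 (0.993), and Nasp (0.991). For Ccr2 the most alike were Gm10705 (0.913), Inppl1 (0.91), and Fabp4 (0.909), and for Cx3cr1 they were Cox19 (0.873), Cpsf1 (0.836), and Taf4b (0.82). Among the receptors, Ccrl2, Fpr1, Fpr2, and Cmklr1 had r of 0.95 to 0.99 with each other, and Ccr1 followed them less closely (0.78 to 0.85).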

How the data were processed

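RNA-Seq had been done on 12 libraries of BMDMs, 3 per condition, with conditions taken from the labels and doses and hours from the study's text. For every gene, the authors deposited raw read counts, whole numbers without normalization, 1 table per library. The submitters' processing notes name FastQC, Trimmomatic, STAR, HTSeq, and DESeq2 without versions. The kit marks the strand, while the genome build, annotation, and strand setting of the counting are not given in the sources used here. Rows for reads not counted on a gene were left out of library sizes (650254 to 869895 ambiguous and 8634639 to 11273250 not unique per library). Of 43626 identifiers, 42462 matched GENCODE M21 without their version.

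The analysis used edgeR 4.0.16 in R 4.3.3 (filterByExpr, TMM factors, quasi-likelihood fit of 1 mean per condition over all 12 libraries). Benjamini-Hochberg adjustment ran over 14308 genes, and calls needed 1.5-fold or more and an adjusted p below 0.05. Intervals are 95% intervals of the fit. Levels are CPM with the SD over 3 libraries, and per kilobase of exon of GENCODE M21. Differences within sets are log2 ratios of CPM of 2 libraries and carry no error. Library sets were found by clustering the residuals of all genes, and the fit with the sets as a block was 1 of the alternatives. The others were DESeq2 1.42.0, its size factors, total counts, no filter, only the conditions compared, no fold minimum (for counts of called receptors), and leaving out each library. The block with total counts, and each set left out with or without the block, were added after seeing the data. All pairs of libraries of a condition differed by more than sampling noise (chi-square per gene at least 14.9). The fits were also run on simulated counts with the same biological coefficient of variation for every gene (0.133, that of the block). No call here rests on that run, because the spread of real genes differs. The members, lists, and markers were chosen with earlier results of these data known. Named are the 9 receptors, per list the genes past the thresholds in a comparison of 3′SL and otherwise at most 3 per comparison with the largest change among those called, and the 3 genes most alike to each receptor. A few genes that this rule names are not reported here.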

Additional observations from a re-analysis of the deposited data

Results flagged for a closer look

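For Fpr1 and Fpr2, the difference between libraries with and without 3′SL was not the same with and without LPS when the library sets were a block in edgeR's fit. The interaction was log2 -0.96 for Fpr1 and -1.37 for Fpr2, and without the block it was -0.94 and -1.32 and not called. With the block, 1.29% of all genes were called lower. The block without set 1 or without set 2 called 0 receptors. Fpr1 was higher with 3′SL in every set at rest (log2 0.33, 0.10, and 0.15) and lower in every set with LPS (-0.89, -0.71, and -0.70). Cmklr1 had the same pattern (0.30, 0.23, and 0.43 at rest and -0.49, -0.35, and -0.19 with LPS), with an interaction of log2 -0.67 that was called neither without the block (edgeR adjusted p = 0.854) nor with it (0.0839). At rest, neither difference was called (edgeR adjusted p = 0.874 for Fpr1 and 0.745 for Cmklr1), and both became log2 -0.06 without 3′SL replicate 3. The share of all genes with such opposite signs in every set was not computed.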

How the results depend on the processing

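Of 300 alternative values for changes of a receptor that had been called, 286 kept the direction and the call, 14 kept the direction and lost the call, and 0 reversed. All 14 were changes of Ccr1. Of 692 for changes that had not been called, 637 kept direction and call, 24 became called, and 31 reversed. Leaving out each library gave 5 to 6 called receptors in both LPS comparisons and 0 in the comparisons of 3′SL and the interaction. In LPS + 3′SL against LPS, DESeq2 called 1 receptor (Ccrl2), the block 2 (Ccrl2 and Fpr1), the block with total counts 2, the block without set 3 called 3 (with Fpr2), and leaving out set 3 called 2, but the block without set 1 or set 2 called 0. In the interaction the block called 2, the block with total counts 1 (Fpr1), and the block without set 3 called 4, but the block without set 1 or set 2 called 0. In 3′SL against PBS the block with total counts called 1 (Ccr2, log2 -0.61, edgeR adjusted p = 0.0494). With no fold minimum, 7 receptors (with Ccr2) were called in LPS + 3′SL against 3′SL, and the counts of the other comparisons did not change. The cause of these differences was not tested.

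Total counts moved the median of all genes to log2 -0.71 in LPS against PBS and -0.54 in LPS + 3′SL against 3′SL, so that 1535 genes were called higher and 6655 lower in the first, and 4 receptors higher and 2 lower. There Ccr1 was 0.47 and not called, Cx3cr1 -1.55 and called, and Ccr2 -0.56, also with the block. Ccr2 in LPS + 3′SL against 3′SL became -0.01, and in LPS against PBS -0.01 without set 1, with or without the block. Other reversals were also in changes that had not been called, and not all of these were near 0. The fit over 12 libraries gave log2 0.45 for Ccr1 and 0.28 for Cxcr4 in the interaction. In 3′SL against PBS it gave 0.34 for Cmklr1 and 0.18 for Fpr1, and both became -0.06 without 3′SL replicate 3. Cx3cr1 in LPS + 3′SL against 3′SL was 0.14 without set 3 (0.16 with the block), and in LPS + 3′SL against LPS -0.01 without set 2 (-0.04 with the block). Ccrl2 in 3′SL against PBS was -0.09 with total counts (-0.06 with the block), -0.01 without the filter, and -0.35 without set 3, with or without the block. Cxcr4 in 3′SL against PBS was 0.16 without set 2 (0.12 with the block), and its interaction -0.03 without set 2. Leaving out each library moved 3′SL against PBS over -0.19 to 0.12 for Ccrl2, -0.35 to 0.34 for Cxcr4, -0.06 to 0.41 for Fpr1, and -0.06 to 0.64 for Cmklr1. It moved LPS + 3′SL against LPS over -0.48 to 0.62 for Ccr1 and -0.18 to 0.30 for Cx3cr1, and the interaction over -0.07 to 1.03 for Ccr1 and -0.10 to 0.60 for Cxcr4. The labels carry no replicate numbers, and the numbers used here follow the order of the libraries, so that replicates 1 to 3 are the libraries of sets 1 to 3 and the block is the paired fit.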

Other observations

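Cxcl12, the ligand of Cxcr4 and Ackr3, was singled out after its values had been seen, because its level followed the library sets. It was 12.3, 12.6, 10.8, and 11.6 CPM in the libraries of set 1 (control, sugar, LPS, and both), 0.316, 0.517, 0.291, and 0.46 CPM in set 2, and 1.89, 1.47, 1.10, and 1.88 CPM in set 3. The stromal markers, 6 of 7 tested, summed to 529 to 616, 22.5 to 42.0, and 54.0 to 96.7 CPM in these sets. Cxcr4 itself lay on average log2 0.05 above, 0.22 above, and -0.27 from the condition means in the sets.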
